A study of Gallus gallus with 25 samples.

Results

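The miR-17-92 cluster and its paralogues were followed through the miRNA arrays of embryonic chicken gonads by every perfect-match mature probe, of any species prefix, named as miR-17, miR-18, miR-19, miR-20, miR-25, miR-92, miR-93, miR-106 or miR-363 by its full number. These were 35 of 657 mature probes, 10 with chicken (gga), 11 with zebrafish (dre), 5 with human (hsa), 5 with mouse (mmu) and 4 with rat (rno) names. The study compared male and female gonads at stages E5.5, E6.5 and E9.5 (E for embryonic day), while testes and ovaries form. No treatment or engineered allele is named in the labels. Each array held small RNA of whole gonads, somatic and germ cells together, from several embryos of 1 sex, labelled with a dye that binds guanine. Embryos were sexed by PCR at E5.5 and E6.5, and by the shape of the gonads at E9.5. Whether arrays of a group, such as replicates 1-1 and 1-2, came from separate pools was not stated, so a p-value here covers array-to-array spread alone, which may be technical.

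The miR-17-92 cluster is transcribed as 1 primary RNA that is cut into several mature miRNAs. Vertebrate genomes carry paralogous copies of it. A mature miRNA finds its target messages mainly through its seed near the 5′ end, and the cluster's products fall into a few seed families. In mammals the cluster is switched on by MYC, promotes proliferation and cell survival, and is known from mouse primordial germ cells and spermatogonia. MiR-17 and miR-20 repress the cell cycle regulators E2F1 and CDKN1A.

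In the RefSeq gene table of assembly GRCg7b, which was used for names and neighbours only, 12 chicken miRNA genes carried these numbers, in 2 groups of 6 with no other miRNA gene between them. The group on chromosome 1 ran MIR17, MIR18A, MIR19A, MIR20A, MIR19B1, MIR92A1. The group on chromosome 4 ran MIR106A, MIR18B, MIR20B, MIR19B-2, MIR92-2, MIR363. The probes named gga-miR-19b and gga-miR-92 could therefore not assign signal to either chromosome.

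The RNA that a probe matches is given as the reverse complement of the deposited probe sequence, 5′ to 3′, with the family seed in capitals. In 13 of the 14 probes of the miR-17/miR-20/miR-93/miR-106 family the seed lay at bases 2 to 8. These are shown because they differ by few bases outside the seed while some were bright and others were never above the negative controls.
gga-miR-17-5p: cAAAGUGCuuacagugcagguagu
dre-miR-17a: cAAAGUGCuuacagugcaggua
gga-miR-106: aAAAGUGCuuacagugcaggua
hsa-miR-106a: aAAAGUGCuuacagugcagguagc
mmu-miR-106a: cAAAGUGCuaacagugcaggua
gga-miR-20a: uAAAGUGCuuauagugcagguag
gga-miR-20b: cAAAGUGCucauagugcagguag
rno-miR-20b: cAAAGUGCucauagugcaggu
dre-miR-20b: cAAAGUGCucacagugcagguag
hsa-miR-106b: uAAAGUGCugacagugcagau
mmu-miR-93: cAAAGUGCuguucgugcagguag

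The miR-18 and miR-19 probes are shown because single bases separated the detected from the undetected members.
gga-miR-18a: uAAGGUGCaucuagugcagaua
gga-miR-18b: uAAGGUGCaucuagugcaguua
dre-miR-18b: uAAGGUGCauuuagugcagaua
gga-miR-19b: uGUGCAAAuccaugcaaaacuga
gga-miR-19a: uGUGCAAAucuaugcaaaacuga
dre-miR-19c: uGUGCAAAuccaugcaaaacucg
dre-miR-19d: uGUGCAAAcccaugcaaaacuga

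The probes of the miR-25/miR-92/miR-363 family are shown because miR-363 shares little with miR-92 and miR-25 beyond the seed. The miR-363 RNAs differ from gga-miR-92 at 10 or 11 aligned bases, while dre-miR-92b and dre-miR-25 differ from it at 2 and 3.
gga-miR-92: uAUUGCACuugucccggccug
dre-miR-92b: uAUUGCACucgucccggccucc
dre-miR-25: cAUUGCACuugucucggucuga
dre-miR-363: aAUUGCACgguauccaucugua
rno-miR-363-3p: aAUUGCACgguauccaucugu
mmu-miR-363: AUUGCACgguauccaucuguaa

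Among all 657 mature probes the seed of the miR-17 family at bases 2 to 8 was held by 14 (2.13%), of which hsa-miR-519d alone was no member. The miR-25/miR-92/miR-363 seed was held by 9 (1.37%), of which gga-miR-32, gga-miR-367 and hsa-miR-367 were no members. The seeds of miR-18 and miR-19 were held by 4 probes each (0.609%), all of them members. The guanines that can take up dye numbered 6 to 8 in the miR-17 family, 6 in miR-18, 4 in miR-19 and 4 or 5 in the miR-25/miR-92/miR-363 family. Levels are therefore compared between samples for 1 probe, and not between probes.

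The 25 arrays came from chip 4011845 (18 arrays) and chip 50636 (7 arrays). Arrays of chip 50636 had a median correlation of only 0.08 to 0.17 with those of chip 4011845, so the 18 arrays were analysed first and alone. They held 3 arrays per sex for E5.5, 4 per sex for E9.5, and 3 male arrays with 1 female array for E6.5. A probe counted as detected on an array when it exceeded the 95th percentile of that array's 7 negative controls, and 51 to 177 mature probes and 9 to 22 members did so. The array with the fewest was Male E5.5 replicate 2, which also had the lowest median correlation with the others on its chip (0.70). The calls are therefore also given without it, as are some, not all, of the lowest p values and family medians that it moved. The number of arrays limits the precision. As a check of the tissue, the probes of miR-202, a miRNA known from gonads, were above the controls on 16 of the 18 arrays by at least 1 probe, and no probe of the skeletal muscle or liver miRNAs was. Of 8 probes of the neural miRNAs miR-9 and miR-124, 1 was above the controls on all 18 arrays and 5 on none. Of the 5 miR-202 probes, 2 were above them on at least 9 arrays. Counted by at least 1 probe, the neural, the smooth muscle and mesenchyme, and the pluripotent and germ cell miRNAs reached 18 of 18 arrays. The red blood cell miRNAs reached 12 and the epithelial ones 9.

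Detection differed within the miR-17 seed family. Of the 14 probes with the miR-17 seed family's names, 8 were above the controls on all 18 arrays. The gga-miR-20a probe was above them on 17 and the mmu-miR-106a probe on 14. The hsa-miR-106b probe and the probes hsa-miR-93, mmu-miR-93 and dre-miR-93 were above them on none. In mammals miR-93, miR-106b and miR-25 are encoded together in a cluster of their own, and the dre-miR-25 probe was also above the controls on no array. All these probes carry human, mouse or zebrafish names. The chicken gene table used here listed no gene for miR-25, miR-93 or miR-106b.

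**Figure D1:**
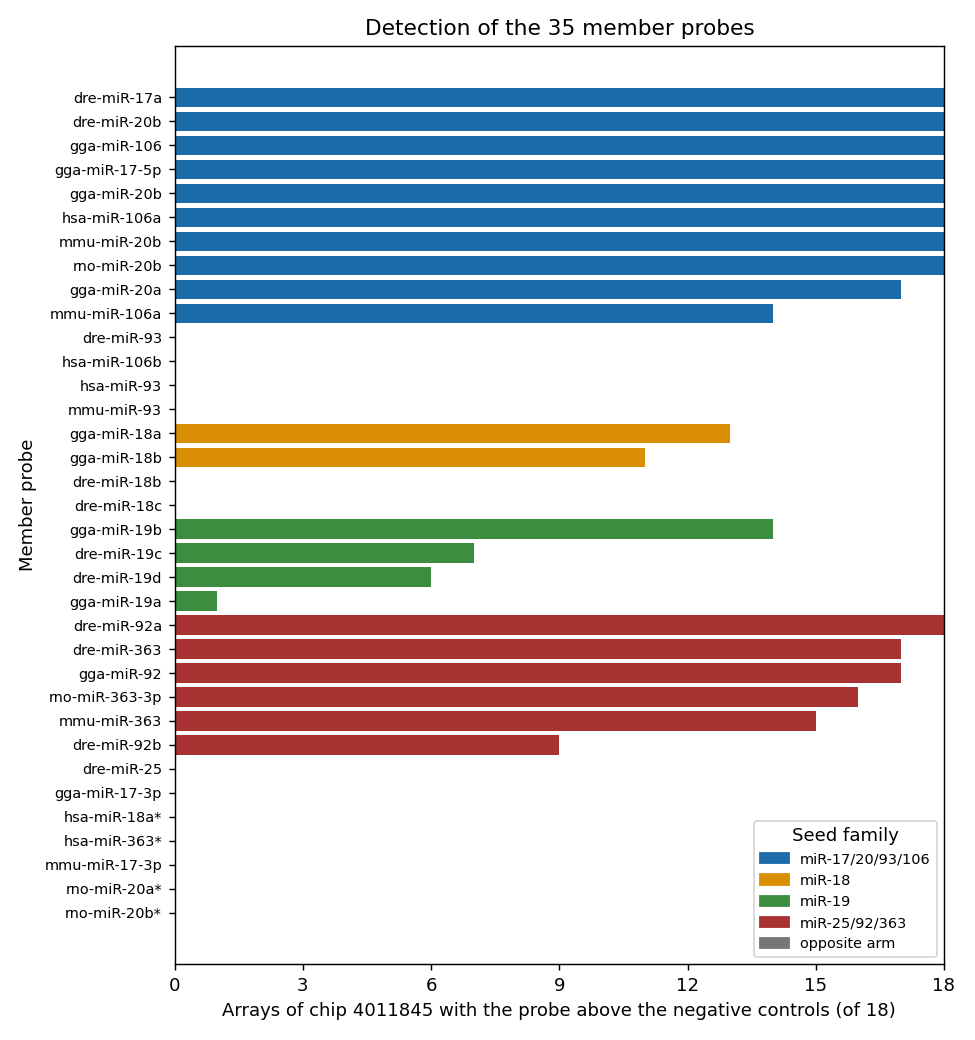
Number of arrays of chip 4011845, of 18, on which each of the 35 member probes was above the negative controls, coloured by seed family. Bars reach 18 for 9 probes and are absent for 13, among them all 6 probes of the opposite arm.

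The bases outside the seed that separated detected from undetected probes were few. Counted from the 5′ end of the RNA, hsa-miR-106b differs from gga-miR-17-5p by C1U, U10G and G20A over the aligned bases. It is also shorter, at 21 bases against 24, and was above the controls on 0 of 18 arrays against 18. The mmu-miR-106a RNA, of 22 bases, differs from gga-miR-17-5p over its length by U10A alone. The dre-miR-18b RNA differs from gga-miR-18a by C11U alone and was never above the controls, where gga-miR-18a was on 13 arrays. The gga-miR-19a RNA differs from gga-miR-19b by C11U alone, and was above the controls on 1 array against 14. How much of a reading came from a near relative was not tested.

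Each member had a partner probe with 2 mismatched bases on the same array. All 21 tested members were brighter than their partners on every array of chip 4011845 on which both had a value, 376 of 376 pairs. The median excess was 4.01 on the log2 scale for gga-miR-17-5p, 1.11 for gga-miR-18a, 1.29 for gga-miR-19b and 2.11 for gga-miR-92. It was 0.04 for hsa-miR-106b, which was never above the controls, and 0.21 for gga-miR-19a. Among tested members it was as low as 0.40 for dre-miR-19d and 0.44 for dre-miR-92b. The partners of dre-miR-92a, dre-miR-92b and gga-miR-92 were themselves above the controls on 4, 4 and 2 of the 18 arrays. The 6 probes of the opposite arm, gga-miR-17-3p, mmu-miR-17-3p, hsa-miR-18a*, rno-miR-20a*, rno-miR-20b* and hsa-miR-363*, were above the controls on no array.

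On chip 50636 the members above the controls on all arrays were again of miR-17, miR-20 and miR-106. On each of its 7 arrays hsa-miR-106a, gga-miR-17-5p, dre-miR-17a, gga-miR-20a, dre-miR-20b, gga-miR-106 and gga-miR-20b were above the controls. The 4 miR-18 probes and the 4 miR-19 probes were above them on 0 of 7. The dre-miR-93 probe was above them on 3 and brighter than its mismatch partner on 7. The dre-miR-92a probe was above the controls on 4 arrays there, yet it was brighter than its partner on only 1 of 7, while the gga-miR-92 probe was brighter than its own on 7. The causes of the differences between the chips were not tested.

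Levels on chip 4011845 are log2 intensities after background correction and quantile normalisation, which fixes the set of values on each array and leaves a probe to vary only by its rank. The gga-miR-17-5p probe ranked between 1 and 7 of 657 on every array. In males it read 10.87, 10.87 and 11.04 at E5.5, 11.04, 10.87 and 10.87 at E6.5, and 10.87, 10.87, 11.04 and 10.87 at E9.5. In females it read 10.65, 11.04 and 10.64 at E5.5, 10.16 at E6.5, and 10.65, 11.04, 10.87 and 11.04 at E9.5. Only the single female E6.5 array lay outside the range of the other groups, and a probe so near the top of the ranks had little room to rise.

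Further tested members of the family ranged over all 18 arrays as follows. The gga-miR-106 probe ran from 9.56 to 10.65, the gga-miR-20b probe from 9.62 to 10.65 and the mmu-miR-20b probe from 8.81 to 9.56. The gga-miR-20a probe ran from 7.60 to 9.62, and the mmu-miR-106a probe from 7.29 to 8.64. The hsa-miR-106a probe ran from 8.51 to 11.04, with a median of 10.87. Its lowest array was Male E9.5 replicate 1-2.

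A probe was tested if it was above the controls on at least 3 of the 18 arrays, which kept 163 probes and 21 members (10 of the miR-17 family, 2 of miR-18, 3 of miR-19 and 6 of miR-25/miR-92/miR-363). Groups were compared with limma, and a call was a Benjamini-Hochberg adjusted p under 0.05 over all 163. The stage comparisons share samples with each other and with the comparisons of the sexes.

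The comparison of E9.5 with E5.5, averaged over the sexes, asked which members changed while the gonads took on their male or female form. Among the 11 comparisons fitted on these 18 arrays, it was the one that called members. It called 39 of 163 tested probes (23.9%), 30 of them higher at E9.5 (18.4%), but only 2 of 21 members, both higher. The median difference over the members was 0.07 on the log2 scale, against -0.02 over all tested probes. The other miRNAs known for control of the cell cycle, namely miR-15, miR-16, miR-195, miR-34, miR-221, miR-222 and let-7, had 9 of 20 tested probes called, all higher, with a median of 0.44. The members at an unadjusted p under 0.05 were 3 of 21, against 39.9% of all tested probes, and none had stages that did not overlap, against 7.36%.

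The called members were dre-miR-17a and rno-miR-363-3p. The dre-miR-17a probe read 9.10, 9.86 and 9.86 in males and 9.79, 9.74 and 9.56 in females at E5.5. At E9.5 it read 10.27, 9.74, 10.06 and 10.26 in males and 10.27, 10.27, 10.16 and 10.40 in females. The female groups did not overlap between the stages, and the male groups did, through 1 E9.5 array. The difference was 0.53 ± 0.16 (SE, limma adjusted p = 0.0298).

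The dre-miR-17a sequence lies whole within that of gga-miR-17-5p, the longer probe for the same miRNA, and both begin with the same base. The gga-miR-17-5p probe differed by 0.05 ± 0.13 (SE) in the same comparison. The correlation of the pair over the 18 arrays was 0.34, a description only, since the points share arrays and the probes match the same RNA. The longer probe ranked between 1 and 7 of 657 on every array. Whether that place limited its difference under quantile normalisation was not tested. Under percentile scaling, an alternative given below, gga-miR-17-5p differed by 0.16 ± 0.16 (SE, limma adjusted p = 0.483) in that comparison. There dre-miR-17a differed by 0.44 ± 0.16 (SE, limma adjusted p = 0.0571) and was not called. The longer probe was thus called in neither form. The difference between these probes was not itself tested.

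The rno-miR-363-3p probe read 7.53, 8.84 and 8.69 in males and 8.17, 8.93 and 8.41 in females at E5.5. At E9.5 it read 9.19, 9.11, 8.93 and 8.68 in males and 9.56, 9.46, 9.07 and 9.51 in females. The male value of 7.53, from replicate 2, was not above the controls. All 4 female E9.5 arrays lay above all 3 of E5.5, while the male groups overlapped. The difference was 0.76 ± 0.24 (SE, limma adjusted p = 0.0323).

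MiR-363 is the last miRNA of the chromosome 4 group, and 2 further probes read it. The dre-miR-363 probe, which holds the rno-miR-363-3p sequence whole, read 7.69, 8.95 and 8.79 in males and 8.38, 8.85 and 8.95 in females at E5.5. At E9.5 it read 9.07, 9.31, 8.81 and 9.14 in males and 9.74, 9.22, 9.38 and 9.68 in females. It differed by 0.69 ± 0.26 (SE, limma adjusted p = 0.066) and did not pass the threshold. The mmu-miR-363 probe, shifted by 1 base, differed by 0.44 ± 0.30 (SE, limma adjusted p = 0.268).

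The miR-92 probes of the same seed family were not called. The gga-miR-92 probe read 8.08, 10.53 and 9.68 in males and 9.06, 9.22 and 8.92 in females at E5.5. At E9.5 it read 9.38, 9.56, 9.27 and 8.88 in males and 9.10, 9.41, 9.02 and 8.93 in females. The lowest and the highest array were both of male E5.5 gonads, and the lowest, replicate 2, was not above the controls. The difference was -0.05 ± 0.28 (SE), for dre-miR-92a it was 0.03 ± 0.27 and for dre-miR-92b 0.07 ± 0.31. At E5.5 the dre-miR-92b probe was above the controls on 2 of 6 arrays. The difference between the miR-363 and the miR-92 probes was not itself tested.

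Both calls lay near the threshold, and leaving out 1 array could end them. Leaving out any of Male E5.5 replicate 2, Female E5.5 replicate 4, the first E9.5 array of either sex (replicate 1-1) or Female E9.5 replicate 3 ended both, with limma adjusted p from 0.0525 to 0.0808. Without Male E5.5 replicate 2 the differences were 0.41 for dre-miR-17a and 0.55 for rno-miR-363-3p. The rno-miR-363-3p call was also lost without Female E5.5 replicate 3 (limma adjusted p = 0.0822) or Male E9.5 replicate 1-2 (0.0603). The slide sector here is the array number that the scanner output gives. With the slide sector as a term neither was called (0.44, limma adjusted p = 0.0679, and 0.75, 0.0618). Within the 4 sectors the E9.5 minus E5.5 difference of dre-miR-17a was 0.79, -0.12, 0.50 and 0.56, and that of rno-miR-363-3p was 1.27, 0.41, 0.28 and 0.81. These rest on 1, 1, 3 and 3 arrays of E9.5 against 2, 1, 1 and 2 of E5.5. In sector 1 a female E9.5 array was set against male E5.5 arrays, so stage and sex cannot be told apart there. In sectors 3 and 4 only female E5.5 arrays were set against E9.5 arrays of both sexes. On this chip replicate numbers 4 and 5 occur in Female E5.5 only. With the replicate number as a block, Female E5.5 therefore rests on replicate 3 alone. The differences were then 0.63 for dre-miR-17a, 1.16 for dre-miR-363 and 1.06 for rno-miR-363-3p.

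**Figure D2:**
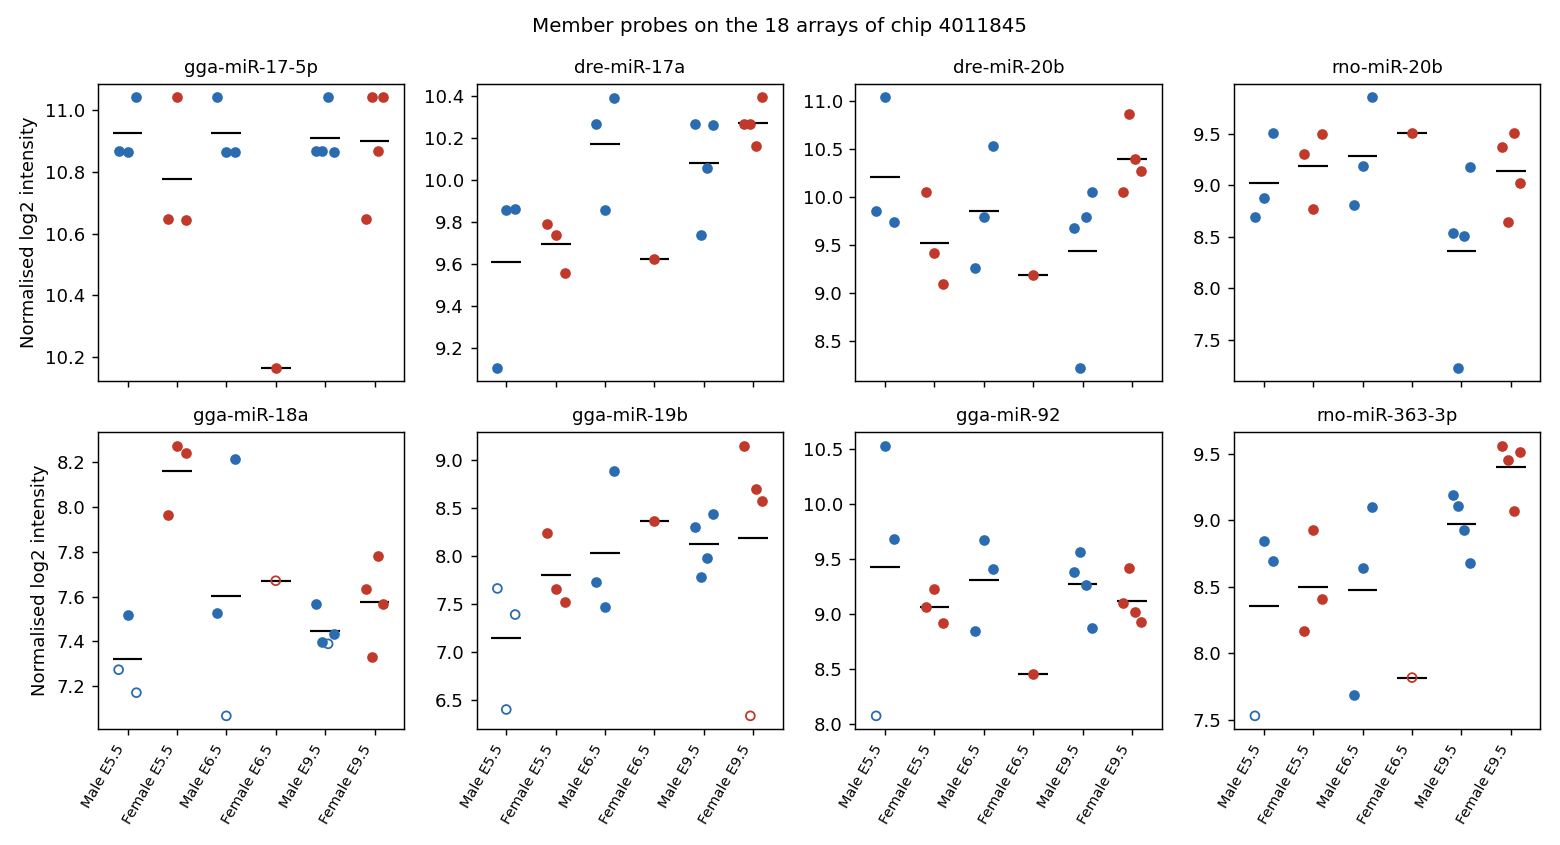
Normalised log2 intensity of 8 member probes on the 18 arrays of chip 4011845, with males in blue, females in red, group means as bars and open circles for values not above the negative controls. The dre-miR-17a and rno-miR-363-3p panels sit higher at E9.5, the gga-miR-17-5p panel spans only 10.16 to 11.04, and Female E6.5 holds a single array.

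Markers of other cells moved with stage as well. Of 8 tested probes of the smooth muscle and mesenchyme miRNAs (miR-143, miR-145, miR-199 and miR-214), 7 were called higher at E9.5, and the mean level of the list ran from 7.19 to 7.63 at E5.5 and from 8.03 to 8.56 at E9.5. Both tested probes of the red blood cell miRNAs (miR-451 and miR-144) were called higher, with list means of 6.11 to 6.74 and 6.93 to 7.80. The 3 tested miR-202 probes had no call. Of 3 tested probes of pluripotent and germ cell miRNAs, 1 was called lower at E9.5, with list means of 6.37 to 6.50 and 6.13 to 6.40, and 15 of the 20 probes on the list were above the controls on no array. Of 2 tested probes of epithelial miRNAs, 1 was called lower, with list means of 6.15 to 6.34 and 6.07 to 6.33. None of the 3 tested neural probes was called. The part of these cells in the members' differences was not tested, and in pooled tissue fewer cells of a type and less RNA per cell cannot be told apart.

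In each sex alone no member was called between E5.5 and E9.5. In males limma called 11 of 163 probes (6.75%) and 0 of 21 members, with 33 probes (20.2%) and no member at an unadjusted p under 0.05. Among members dre-miR-17a had the lowest p (0.47 ± 0.23, SE, limma adjusted p = 0.261), and without Male E5.5 replicate 2 its difference was 0.22 ± 0.23 (SE, limma adjusted p = 0.716). In females limma called 13 of 163 probes (7.98%) and 0 of 21 members, with 42 probes (25.8%) and 3 members at an unadjusted p under 0.05. Here rno-miR-363-3p had the lowest p (0.90 ± 0.34, SE, limma adjusted p = 0.0983). It passed in females when both chips were fitted together with chip as a term (0.96 ± 0.27, SE, limma adjusted p = 0.0181), as did dre-miR-17a (0.59 ± 0.19, SE, limma adjusted p = 0.0325).

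In females 6 of 21 members had E5.5 and E9.5 arrays that did not overlap, against 38% of all tested probes, and in males 2 of 21, against 17.8%. In females these were rno-miR-363-3p, dre-miR-363, mmu-miR-363, dre-miR-17a and dre-miR-20b, higher at E9.5, and gga-miR-18a, higher at E5.5. All 6 probes of the miR-25/miR-92/miR-363 family had a positive difference in females (median 0.48) and 3 of 6 did in males (median 0.09). Among them dre-miR-92b was above the controls on 0 of 3 female E5.5 arrays. Without Male E5.5 replicate 2, 2 of 6 did in males, with a median of -0.47, and with the sexes averaged the median of this family moved from 0.26 to -0.02. In males the 2 members without overlap were gga-miR-19b and dre-miR-19d, both below the controls on all male E5.5 arrays.

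MiR-19, which takes its place in the cluster between miR-18 and miR-92, was above the controls on more arrays later. The gga-miR-19b probe was above them on 0 of 3 male and 3 of 3 female arrays at E5.5, on 3 of 3 and 1 of 1 at E6.5, and on 4 of 4 and 3 of 4 at E9.5. The dre-miR-19c and dre-miR-19d probes were above them on 0 of 6 arrays at E5.5 and on 6 and 5 of 8 at E9.5. The cut set by the negative controls moved too, from intensities of 216 to 297 at E5.5 to 103 to 242 at E9.5, and the number of mature probes above it from 51 to 126 at E5.5 to 87 to 177 at E9.5.

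The levels of miR-19 overlapped between the stages. The gga-miR-19b probe read 7.66, 6.40 and 7.39 in males and 8.24, 7.65 and 7.52 in females at E5.5. At E9.5 it read 8.30, 7.78, 7.97 and 8.44 in males and 9.15, 6.33, 8.69 and 8.57 in females. All male E9.5 arrays lay above all male E5.5 arrays, and in females 3 of 4 E9.5 arrays lay above those of E5.5 while replicate 1-2 was the lowest of all. The male E5.5 arrays give only a bound, which came to 1.47-fold brighter in males at E9.5. This bound leaves out the spread between arrays, so it sets no minimum. The difference itself did not pass (limma adjusted p = 0.313). For dre-miR-19c and dre-miR-19d the same bound came to less than 1 in both sexes, so no fold can be given. A bound is the brighter group's mean over the dimmer group's arrays, each raised to the lowest signal above the controls on that array.

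With the sexes averaged, the E9.5 minus E5.5 difference was 0.68 ± 0.37 for gga-miR-19b (SE, limma adjusted p = 0.176), 0.46 ± 0.24 for dre-miR-19c (0.161) and 0.45 ± 0.22 for dre-miR-19d (0.137). None passed. The differences of dre-miR-19c and dre-miR-19d rest on E5.5 values that were all below the controls. Without Female E9.5 replicate 1-2, gga-miR-19b did pass (0.99 ± 0.26, SE, limma adjusted p = 0.0164), with 3 of its 6 E5.5 values below the controls. Among males every miR-19 value at E5.5 was below the controls, so the family's median difference is not a firm one. With the slide sector as a term this male median turned from 0.61 to -0.04. It was 0.91 with the replicate number as a block and 0.89 without Male E5.5 replicate 2. With the block, gga-miR-19b had the lowest p among members in males (1.51 ± 0.46, SE, limma adjusted p = 0.0503). It did not pass, and its male E5.5 values were all below the controls.

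The miR-18 probes read low and close to the controls. At E5.5 the gga-miR-18a probe read 7.27, 7.52 and 7.17 in males and 7.96, 8.27 and 8.24 in females. At E9.5 it read 7.57, 7.40, 7.39 and 7.43 in males and 7.63, 7.33, 7.78 and 7.57 in females. The sexes did not overlap at E5.5 and did at E9.5. Only 1 of the 3 male E5.5 arrays was above the controls.

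The comparisons of the sexes asked whether members differ between testis and ovary. At E5.5 limma called 0 of 163 probes (0%), with 3 probes (1.84%) at an unadjusted p under 0.05, of which gga-miR-18a was the only member. It was lower in males by a difference of -0.84 ± 0.26 (SE, limma adjusted p = 0.737), and the gga-miR-18b probe differed by -0.52 ± 0.32 (SE). Of the 21 members, 2 had sexes that did not overlap, gga-miR-18a and dre-miR-19d, against 4.29% of all tested probes. All 6 values of dre-miR-19d were below the controls and have no firm order. The medians over the families were -0.13 for miR-17/miR-20/miR-93/miR-106, -0.68 for miR-18, -0.49 for miR-19 and 0.09 for miR-25/miR-92/miR-363, against -0.08 over all tested probes. Without Male E5.5 replicate 2 they were 0.03, -0.58, -0.63 and 0.64, against -0.01. The miR-19 medians rest on male values that were all below the controls. For dre-miR-19c and dre-miR-19d the female values were below them too.

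The male E5.5 arrays lay in slide sectors 1, 1 and 2 and the female ones in 3, 4 and 4, so sex and sector cannot be told apart among them. With the sector as a term, which other groups inform, the medians became 0.27 for the miR-17/miR-20/miR-93/miR-106 family and 0.43 for miR-19, both with the sign turned, and -0.45 for miR-18. The miR-19 median again rests mostly on E5.5 values below the controls.

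On chip 50636, with 2 male arrays and 1 female array at E5.5, limma called 18 of 116 tested probes, among them gga-miR-92 (0.81 ± 0.12, SE, limma adjusted p = 0.0189) and rno-miR-20b (0.78 ± 0.18, SE, limma adjusted p = 0.0488), both higher in males. The lone female array had the highest median foreground of all 25, at 454, and is assumed to vary like the other groups. Of the 7 arrays of chip 50636, gga-miR-92 was above the controls on 6 and rno-miR-20b on 3. On chip 4011845 the same probes differed by 0.36 ± 0.43 and -0.16 ± 0.42 (SE).

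At E6.5, with a single female array on chip 4011845, limma called 0 of 163 probes (0%), with 10 (6.13%) at an unadjusted p under 0.05, of which gga-miR-17-5p was a member. It differed by 0.76 ± 0.28 (SE, limma adjusted p = 0.377). With a single array in 1 group, 10 of 21 members did not overlap, against 47.2% of all tested probes. The difference for gga-miR-17-5p on chip 50636, with 2 arrays of each sex, was 0.12 ± 0.23 (SE).

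At E9.5 limma called 0 of 163 probes (0%), with 11 (6.75%) at an unadjusted p under 0.05, of which 2 were members. The dre-miR-20b probe had the lowest p among them. Over the aligned bases its RNA differs by 1 base from gga-miR-20b and by 1 base from gga-miR-17-5p, so it matches neither exactly. Which chicken miRNA it read was not tested. The dre-miR-20b probe read 9.68, 8.22, 9.79 and 10.05 in males and 10.06, 10.87, 10.40 and 10.27 in females. The sexes did not overlap, though the highest male and the lowest female array were almost level, and the difference was -0.96 ± 0.40 (SE, limma adjusted p = 0.659). It was the only 1 of 21 members without overlap, against 7.98% of all tested probes.

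The rno-miR-20b probe, which lies within the gga-miR-20b probe, read 8.54, 7.23, 8.51 and 9.18 in males at E9.5 and 9.38, 8.65, 9.51 and 9.02 in females. The groups overlapped. Its lowest value came from Male E9.5 replicate 1-2, as did that of dre-miR-20b. With the replicate number as a block, rno-miR-20b had the lowest p among members (-0.77 ± 0.25, SE, limma adjusted p = 0.214). The longer gga-miR-20b probe read 10.06, 9.79, 9.74 and 9.86 in males and 9.95, 10.16, 9.95 and 10.16 in females, a difference of -0.20 ± 0.23 (SE).

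Averaged over E5.5 and E9.5, limma called 0 of 163 probes (0%) between the sexes, with 12 (7.36%) at an unadjusted p under 0.05, of which 2 were the chicken miR-18 probes. The male minus female difference was -0.48 ± 0.17 for gga-miR-18a (SE, limma adjusted p = 0.445) and -0.47 ± 0.21 for gga-miR-18b (SE, limma adjusted p = 0.64). The member median was -0.22, with 17 of 21 members lower in males, against -0.05 over all tested probes, of which 89 of 163 were lower. Several members read the same miRNA, so they are not separate cases. In the E5.5 part of this average, leaving out Male E5.5 replicate 2 moved the member median from -0.16 to 0.05. The members higher in males there went from 7 to 12 of 21.

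The change of the sex difference from E5.5 to E9.5 was tested as an interaction. Limma called 0 of 163 probes (0%), with 3 (1.84%) at an unadjusted p under 0.05. The only member among these was dre-miR-20b (-1.65 ± 0.61, SE, limma adjusted p = 0.989, and -1.85 ± 0.65 and 0.45 without Male E5.5 replicate 2). It read 9.86, 11.04 and 9.74 in males and 10.05, 9.41 and 9.10 in females at E5.5, so that its male mean was above the female mean at E5.5 and below it at E9.5. Neither direction passed.

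**Figure D3:**
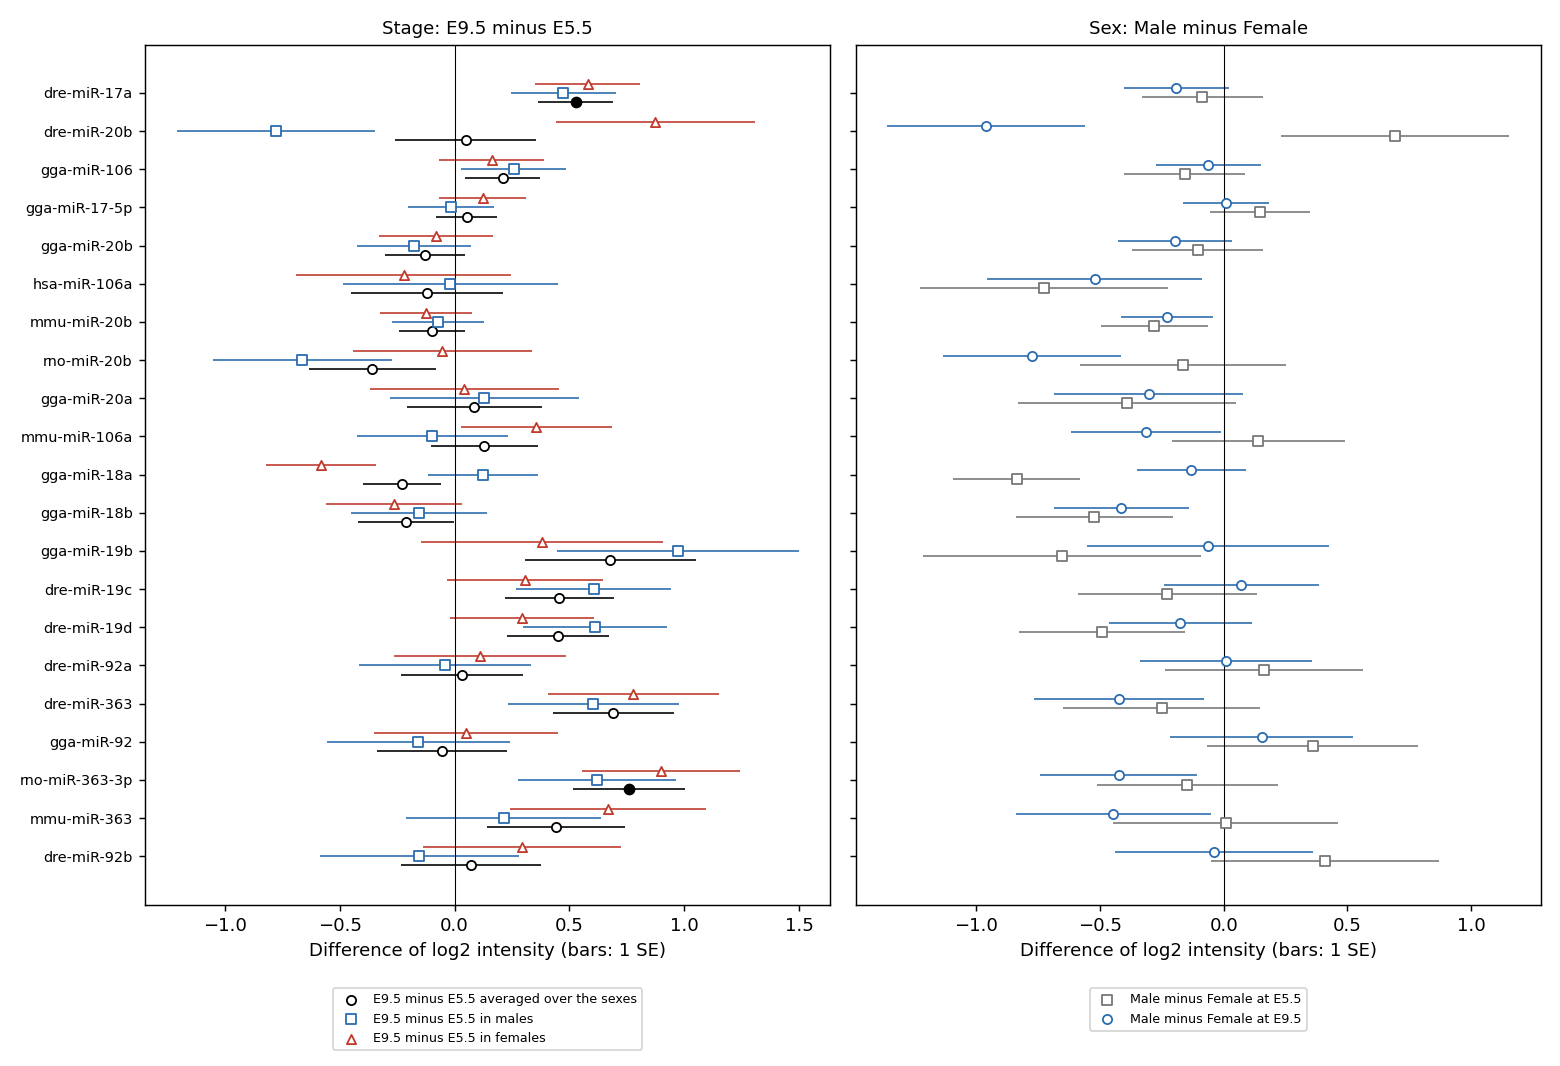
Differences of log2 intensity for the 21 tested members, with 1 SE as bars; E9.5 minus E5.5 on the left (both sexes averaged, males, females) and male minus female at E5.5 and E9.5 on the right, with filled points for calls. Only dre-miR-17a (0.53) and rno-miR-363-3p (0.76) are filled, and dre-miR-20b is the member whose male and female changes lie farthest apart.

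The steps through E6.5 gave no call of a member. Between E5.5 and E6.5 in males limma called 0 of 163 probes (0%), with 3 (1.84%) at an unadjusted p under 0.05, of which dre-miR-17a was a member (0.56 ± 0.25, SE, limma adjusted p = 0.952), at 0.32 ± 0.25 (SE) without Male E5.5 replicate 2. It read 10.27, 9.86 and 10.39 at E6.5. With the replicate number as a block, hsa-miR-106a had the lowest p among members (0.78 ± 0.30, SE, limma adjusted p = 0.614). The gga-miR-20a and dre-miR-17a probes were also at an unadjusted p under 0.05 there. No member had E5.5 and E6.5 arrays that did not overlap, against 2.45% of all tested probes. On chip 50636 the difference of dre-miR-17a was -0.03 ± 0.14 (SE). Between E6.5 and E9.5 in males limma called 2 of 163 probes (1.23%) and 0 of 21 members, with 20 probes (12.3%) and 1 member at an unadjusted p under 0.05. That member was rno-miR-20b (-0.92 ± 0.39, SE, limma adjusted p = 0.333). The mmu-miR-20b probe was the 1 member whose E6.5 and E9.5 male arrays did not overlap, against 10.4%. All 10 tested probes of the miR-17 family had a negative difference in that step, with a median of -0.41, against -0.04 over all tested probes. With the replicate number as a block 4 of the 10 had a positive one, and the median was -0.12.

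Between the single female E6.5 array and E9.5 limma called 15 of 163 probes (9.2%) and 0 of 21 members, with 51 probes (31.3%) and 3 members at an unadjusted p under 0.05. Against this single array 11 of 21 members did not overlap, as did 68.7% of all tested probes. The rno-miR-363-3p probe had the lowest p among members (1.58 ± 0.50, SE, limma adjusted p = 0.0563). It was not above the controls on that array. With that array raised to its lowest signal above the controls, the E9.5 mean was 2.75-fold brighter. This figure leaves out the spread between arrays and is no lower limit. The rno-miR-363-3p probe passed with both chips fitted together (1.09 ± 0.32, SE, limma adjusted p = 0.0235), as did dre-miR-17a (0.69 ± 0.22, SE, limma adjusted p = 0.0316).

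Across the 18 arrays the probes of some families moved together and those of others did not. Pearson's r is given as a description, since the points share arrays, and probes of near-identical sequence can bind the same RNA. The 3 miR-19 probes correlated at 0.80 to 0.96, the 3 miR-92 probes at 0.91 to 0.97, the 3 miR-363 probes at 0.74 to 0.94 and the 2 miR-18 probes at 0.71. Between miR-92 and miR-363 probes, which share the seed and not the rest, r ran from 0.39 to 0.58. The 45 pairs within the miR-17 family ran from -0.52 to 0.81 with a median of 0.25, and even gga-miR-20b and rno-miR-20b, the second a shorter copy of the first, had an r of 0.02.

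Between families r varied as widely. The miR-19 and miR-25/miR-92/miR-363 probes correlated between -0.53 and 0.32, with a median of -0.12 over 18 pairs. The miR-17 family had a median of 0.28 with miR-19 over 30 pairs, 0.12 with miR-18 over 20 and 0.12 with miR-25/miR-92/miR-363 over 60. The miR-18 probes had a median of 0.14 with miR-19. Over all 146 pairs of members from different families the median was 0.13.

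**Figure D4:**
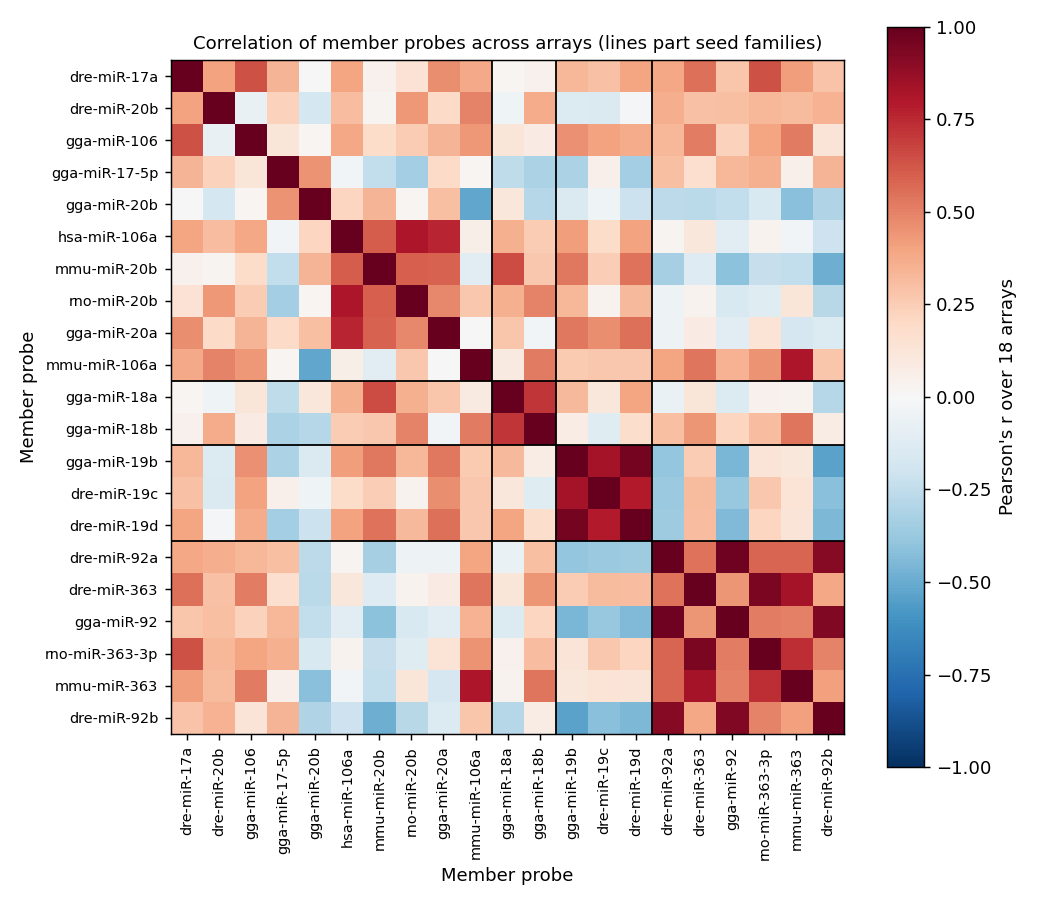
Pearson's r between the 21 tested members over the 18 arrays of chip 4011845, with black lines between the seed families. The blocks of miR-19 (0.80 to 0.96) and miR-92 (0.91 to 0.97) are dark red, and the block of the miR-17 family is mixed, from -0.52 to 0.81.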

How the data were processed

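Per the labels, the arrays measured ULS-Cy5 labelled small RNA of pooled gonads, at scan exposures of 0.1 to 2 s. The authors deposited, per the file headers, a median foreground intensity for each of 1412 probes per array after excluding spots, with no background subtracted. The series table they deposited holds each array's intensity as a straight line of the scanner medians with low values blank, and it was an alternative only. How its lines were set was not given in the sources used here.

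Intensities were corrected with normexp (offset 50), put on the log2 scale and quantile-normalised over the mature probes with limma 3.58.1 in R 4.3.3. The 18 arrays of chip 4011845 were fitted as 6 group means. Probes detected on at least 3 arrays were tested, with Benjamini-Hochberg adjustment within a comparison, and all adjusted p-values are limma's. A test value is given for each called member, for the member with the lowest p where none was called, and for other probes of the same miRNA or seed family. The last were picked after their values were seen. A probe whose spots were all excluded was missing on that array, which befell 1 member value, of a probe that was not tested. The members, the lists and the tests were chosen with earlier results of these data known. The code was tested on simulated arrays.

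To see whether replicate numbers pair arrays, deviations from the group means were correlated. Across male E5.5 and male E6.5 arrays the 3 pairs correlated at 0.33 to 0.76, and the 4 male and female pairs of E9.5 at 0.14 to 0.44. Arrays of different number were not set beside them, so whether the numbers pair the arrays was not settled. The labels do not say it either. The main fit left the arrays unpaired, and the replicate number as a block was an alternative. For the other pairs of groups that a comparison subtracts and that share numbers, at least 1 pair was under 0.1. Male replicate 2 reached 0.55 between E5.5 and E9.5 and 0.52 between E6.5 and E9.5, while male replicate 3 was at -0.09 in both.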

Additional observations from a re-analysis of the deposited data

Results flagged for a closer look

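Of 42 groups of 4 arrays examined (21 members in each sex at E9.5), 4 held an array far from the others, and chance alone gives about 1 in 20. The hsa-miR-106a probe read 9.86 on Female E9.5 replicate 1-2, with the nearest array at 10.87. The gga-miR-17-5p probe read 11.04 on Male E9.5 replicate 2, where the other 3 arrays read 10.87, both values being those that quantile normalisation gives to the top ranks. The dre-miR-92a probe read 9.74 on Female E9.5 replicate 1-2, with the next at 9.46. The dre-miR-19d probe read 6.06 on the same array, with the next at 7.26. The array that stands apart for these 3 members is also the one with the lowest gga-miR-19b value.

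The chip also tiles 2 of the precursor hairpins with probes that no comparison used. For gga-mir-17, 3 of 12 windows were above the negative controls on at least 9 arrays, those starting at bases 5, 10 and 15 of the hairpin, with median foreground intensities of 1064, 945 and 983. For gga-mir-20a, 3 of 14 windows were, starting at bases 10, 15 and 20, with medians of 399, 1255 and 448. Of the remaining windows, 6 for gga-mir-17 and 11 for gga-mir-20a were above them on no array.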

How the results depend on the processing

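The number of called members is given here for each alternative that moved it. A count that did not move can hold other members, as with 75th percentile scaling in the averaged stage comparison. There rno-miR-363-3p (0.77 ± 0.21, SE, limma adjusted p = 0.0132) and dre-miR-363 (0.69 ± 0.22, SE, limma adjusted p = 0.0274) were called. The dre-miR-17a call was lost (0.44 ± 0.16, SE, limma adjusted p = 0.0571). For E9.5 minus E5.5 averaged over the sexes (2 members called) it was 1 with no filter on dim probes, 1 with the deposited series table, 1 with replicates 1-1 and 1-2 merged and 0 with the slide sector as a term, and leaving out 1 array in turn gave 0 to 4. For that comparison in females (0 called) it was 2 with both chips, 1 with 75th percentile scaling, 1 with no filter and 1 with exposure as a covariate. In males (0 called) it was 1 with no filter and 1 with the sector term. For E9.5 minus E6.5 in females (0 called, 1 array at E6.5) it was 2 with both chips, 2 without background correction, 1 with no filter, 1 with detection on at least 9 arrays, 1 with the series table and 1 with exposure, and leaving out 1 array gave 0 to 1. For male minus female it was 1 at E6.5 with no filter, and 2 at E5.5 on chip 50636 alone, an alternative chosen after seeing the data. The dre-miR-17a difference between E6.5 and E5.5 in males reversed to -0.027 on chip 50636 alone. With the replicate block Female E5.5 rests on 1 array, so no count is given for the comparisons that use it. For the other comparisons the count was 0. No alternative moved the count for the sexes at E9.5, the sexes averaged, E6.5 minus E5.5 or E9.5 minus E6.5 in males, or the interaction. The 75th percentile scaling moved the median of all tested probes by between -0.25 and 0.18. Over all alternatives the limma adjusted p ran from 0.0123 to 0.0993 for dre-miR-17a and from 0.0049 to 0.086 for rno-miR-363-3p in the averaged stage comparison. Across settings the averaged stage comparison called 18 to 62 probes. E9.5 minus E5.5 called 7 to 34 probes in females and 6 to 28 in males. The share of all probes called is not given setting by setting, so the member counts above cannot be judged against it. Signal over the controls limits miR-18 and miR-19, whose lower values have no firm order. It also limits dre-miR-92b, above the controls on 9 of 18 arrays. The Male E5.5 replicate 2 values of gga-miR-92, dre-miR-363 and rno-miR-363-3p were not above the controls either. The cause of each change was not tested.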
